A study of Homo sapiens with 6 samples.

Results

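The peaks described here are the wide intervals of a ChIRP-seq experiment on DINO, a long noncoding RNA induced by DNA damage that acts in the p53 response. A peak was taken when its end minus its start was 800 bp or more in any of 4 peak lists, on chromosomes 1 to 22 and X. The 20 kb around CDKN1A and DINO on chromosome 6, where the probes match the gene of their own RNA, was left out, and with it 1 wide peak in each list. Intervals that shared at least 1 bp across lists were merged. This gave 959 wide peaks in 581 regions, which is 0.3% of the 193971 regions made by merging all peaks in the same way. The regions were chosen by the measured peak width, so widths and the peak heights that go with them are given as a description.

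All libraries came from U2OS, an osteosarcoma cell line of human origin that keeps wild-type p53, after 24 h in 0.2 µg/mL doxorubicin, a drug that breaks DNA. Cells were crosslinked with glutaraldehyde. Biotinylated oligonucleotides in 2 sets, even and odd, were used to pull down the RNA with its chromatin, once from untreated and once from RNase-treated chromatin. There was 1 library for each of these 4 conditions, so the spread between replicates is unknown and the libraries were compared without a test. Of the 6 samples, the 2 input libraries were not analysed here. Read depth is unknown.

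In ChIRP, hybridisation of short probes brings down both the RNA and any DNA that the probes can reach, and RNase treatment of the chromatin before capture shows which recovery remains once RNA has been digested. A peak caller joins neighbouring enriched bases into 1 interval and marks the highest base as its summit. A recovered site of a single position therefore gives an interval about as wide as the sheared fragments, with the summit near its middle. Human minisatellites and other tandem repeats, in which a short unit is copied head to tail, are known to lie more densely towards chromosome ends than elsewhere. No hg19 sequence or repeat annotation was used here, so what the wide intervals contain was not analysed here.

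Wide peaks belonged almost entirely to the even probe set. The untreated even list had 439 of them among its 105665 peaks (0.415%) and the RNase-treated even list had 482 of 116166 (0.415%). The untreated odd list had 15 of 34691 (0.0432%) and the RNase-treated odd list had 23 of 57464 (0.04%). Per peak, wide intervals were thus 9.61 times as frequent in the even list as in the odd list without RNase and 10.4 times with RNase. The lists differ in length, and the strongest 34695 peaks of each list still held 427 and 471 wide even peaks. After RNase the even set had 1.098 times as many wide peaks and 1.099 times as many peaks of any width, so its share of wide peaks was the same in both RNase states.

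The even intervals also reached further. The widest was 4657 bp without RNase and 4721 bp with RNase, against 1497 bp and 1650 bp in the odd lists. Even intervals of at least 2000 bp numbered 27 without RNase and 25 with RNase, and there were 0 in either odd list. The median width of the wide peaks nevertheless differed little, at 1059 bp and 1048.5 bp in the even lists and 1062 bp and 999 bp in the odd lists. Without RNase, wide peaks made up 2.21% of the bases covered by even peaks and 0.218% of those covered by odd peaks. The merged regions were 800 to 4721 bp wide, with a median of 1047 bp, and covered 693 kb.

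**Figure D1:**
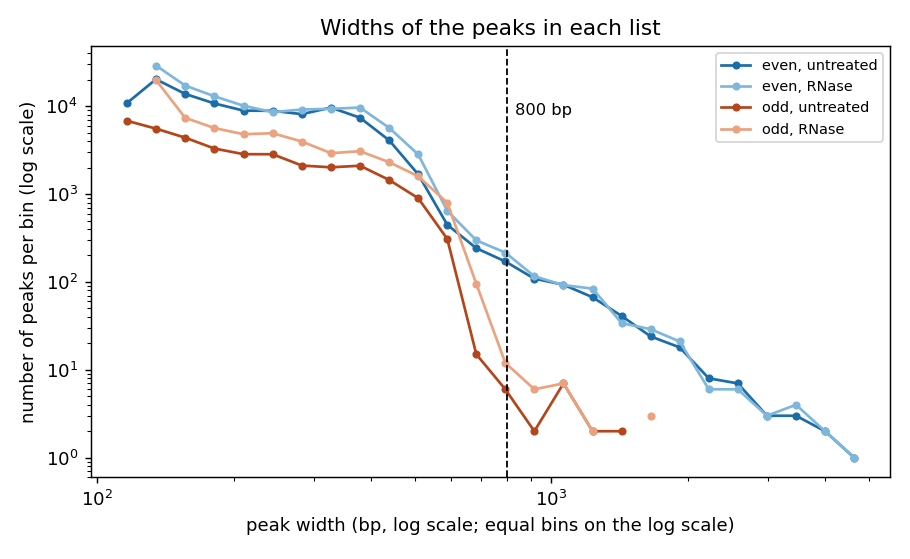
Number of peaks per bin of peak width in each of the 4 lists (both axes on a log scale, points at the bin centres, bins without a peak left blank), with the threshold of 800 bp as a dashed line. Both odd lists drop steeply above 600 bp, where they have 76 (untreated) and 279 (RNase-treated) peaks of 600 to 799 bp, whereas the even lists go on in a long tail up to 4721 bp.

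The threshold lay within this tail without a gap in the even lists. The narrowest wide peaks of the untreated even list were 800 bp, with fold enrichments of 68.8 (chromosome 1, 203495927 to 203496726) and 72.97 (chromosome 2, 23169275 to 23170074). The fold is the authors' own enrichment at the summit over the background that the peak caller modelled. Which library that background came from is not given. The widest peaks left out there were 799 and 798 bp, with folds of 42.3 and 59.6. For even probes with RNase, peaks of 800 bp had folds of 11.9 and 113, and the first left out were 799 bp with folds of 75.2 and 132. For odd probes without RNase the nearest peaks were 822 bp (fold 91.5) and 838 bp (fold 7.77) inside and 787 bp (fold 48.4) and 751 bp (fold 84.5) outside. With RNase they were 803 bp (fold 17.7) and 804 bp (fold 89.1) inside and 790 bp (fold 101) and 777 bp (fold 54.7) outside.

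Wide peaks were also high. For even probes their median fold was 44.98 without RNase and 61.3 with RNase, against 10.9 and 11.8 for peaks under 800 bp. For odd probes it was 64.8 and 100.2, against 10.2 and 10.96. Across all peaks of a list, width and fold went together, with Spearman rho between 0.84 (RNase-treated even) and 0.86 (untreated odd). These values are across peaks of the same library, with a taller peak crossing the threshold over more bases. Within the wide peaks the relation was weak, with rho of 0.20 for the 439 untreated even peaks and 0.19 for the 482 RNase-treated even peaks. In the even lists the fold did not keep rising with width. The median was 45.8 for untreated even peaks of 400 to 599 bp, 35.03 for those of 600 to 799 bp and 56.4 for those of 1500 bp or more. In the RNase-treated odd list, in contrast, peaks of 600 to 799 bp had the highest median fold of any width class, at 164, against 90.9 for 800 to 999 bp.

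RNase treatment left the wide regions in place. Of the 581 regions, 579 (99.7%, Wilson 95% interval 98.8 to 99.9) had an untreated and an RNase-treated peak of the same probe set, against 59.7% of all merged regions. None of the 581 (0%, interval 0 to 0.657) was without an RNase-treated peak, whereas 11.6% of all merged regions were. By the rule, regions wide in an RNase-treated list could not lack one. Only the 78 regions wide in the untreated even list alone and the 1 wide in the untreated odd list alone could have. Each of the 439 wide even peaks found without RNase was met by an even peak with RNase, against 80.9% of all untreated even peaks. All 15 wide odd peaks found without RNase were met by an odd peak with RNase, against 91.6% of all odd peaks of that list. In reverse, 480 of 482 wide RNase-treated even peaks had an untreated even peak (73.5% of all peaks of that list) and all 23 wide RNase-treated odd peaks had an untreated odd peak (55.2%). A wide interval has more bases to overlap with, and strong narrow peaks were kept as often. Read at the summit base alone, all 439 wide even peaks without RNase fell inside an even peak with RNase (80.4% of all peaks of the list), and so did 480 of 482 in reverse (72.8%). The odd summits did so for all 15 (91%) and all 23 (54.3%). Of the 4053 even peaks under 800 bp with a fold of at least 50 without RNase, 4052 had a counterpart. The intervals of shares hold counting error alone, and neighbouring peaks are not independent of each other.

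The width itself was kept less often than the position. A wide even peak was matched by a wide peak in the other RNase state in 361 cases, which is 82.2% of the untreated and 74.9% of the RNase-treated wide even peaks. Where the untreated even peak was wide and the RNase-treated one was not, 42 intervals met 1 narrower peak and 36 were broken into several. Where the RNase-treated even peak was wide and the untreated one was not, 50 met 1 narrower peak and 69 were broken into several, at most 4 pieces. The widest narrower peak there had a median width of 643.5 bp with RNase and 575 bp without RNase. It was at least 600 bp in 42 of the 78 cases with RNase and in 57 of the 119 cases without RNase, close to the threshold. In the odd set, 14 of the 15 untreated and of the 23 RNase-treated wide peaks were wide in both states (93.3% and 60.9%).

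**Figure D2:**
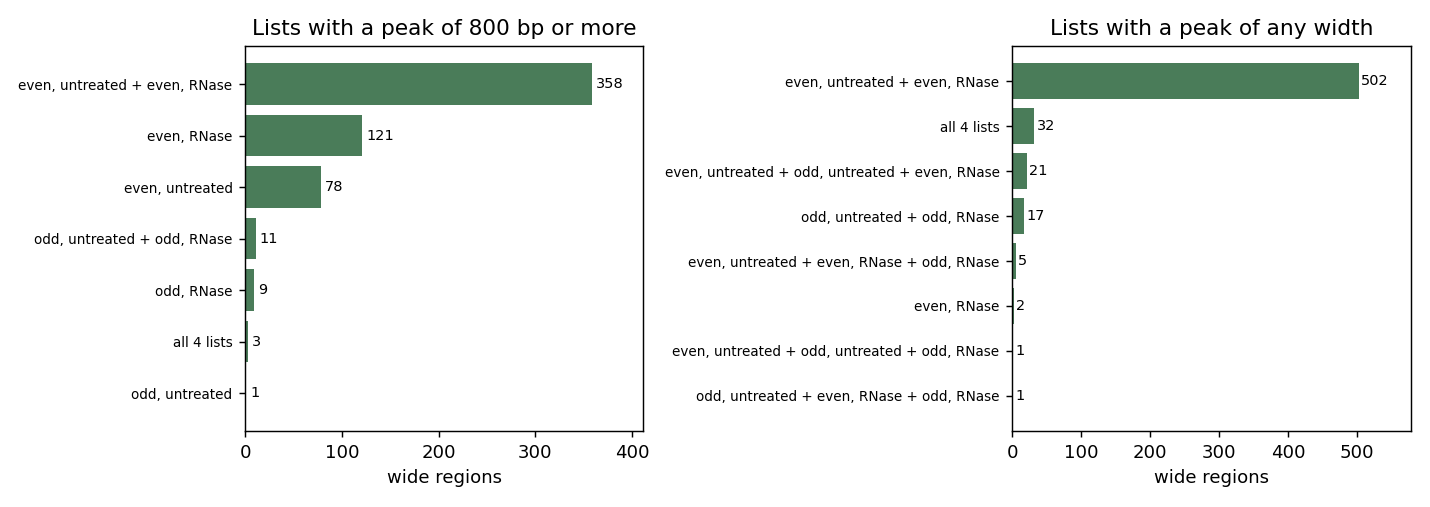
Number of the 581 wide regions by the lists in which they hold a peak of 800 bp or more (left) and a peak of any width (right). The even lists alone account for 358 regions wide in both RNase states and 502 regions with peaks in both RNase states.

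Where the peaks of both RNase states were wide, the edges of the intervals moved little. These pairs were kept only if both widths reached 800 bp, which favours similar widths, and the narrowed or broken intervals above are not among them. Edge shifts of narrower peaks were not measured. In the 361 even pairs, starts differed by a median of 24 bp and ends by a median of 30 bp, and in 215 pairs (59.6%) both edges lay within 50 bp. The RNase-treated interval was 1.01 times the untreated width at the median (quartiles 0.97 and 1.04). It was wider in 199 pairs and narrower in 159. In the 14 odd pairs the RNase-treated interval was 1.04 times the untreated width at the median and was wider in 11 pairs. Higher peaks in the RNase-treated lists move with this, since the median fold of all peaks was higher there too, and their part in the widths was not tested.

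**Figure D3:**
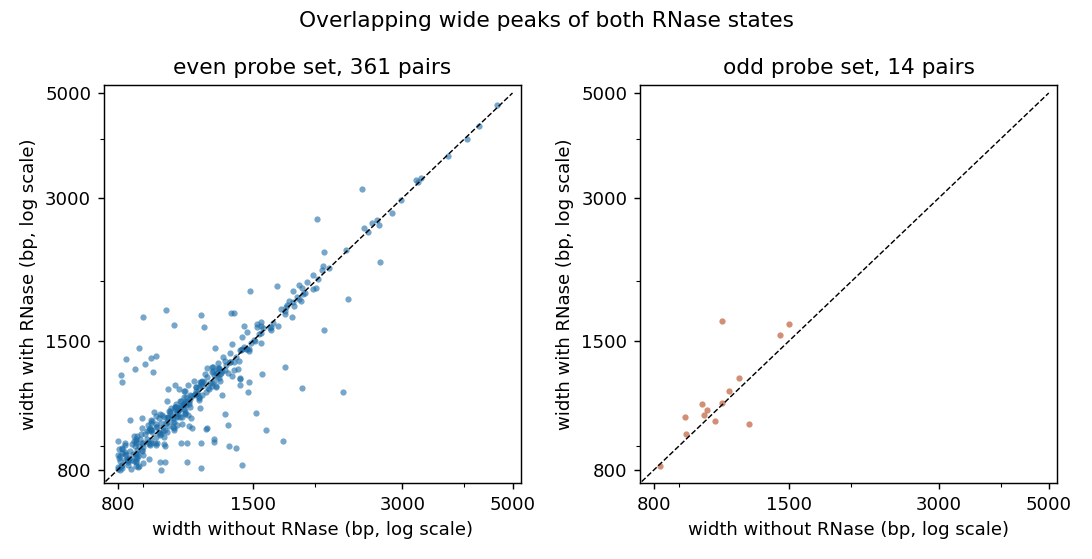
Width of each wide peak without RNase (horizontal axis, bp, log scale) against the overlapping wide peak with RNase (vertical axis, bp, log scale), in the even set (361 pairs) and the odd set (14 pairs), with the line of equal width dashed. Points follow the line up to the widest region, at 4657 and 4721 bp.

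All but 1 of the 10 widest regions had even peaks of nearly the same width in both RNase states. The widest lay on chromosome 5 at 1044236 to 1048956 and held a single even peak in each state, of 4657 bp (fold 47.9) without RNase and 4721 bp (fold 79.9) with RNase. The odd set had only narrow peaks there, of at most 136 bp (fold 7.92) without RNase and 495 bp (fold 19.2) with RNase. It began 43 bp beyond a second of the 10, at 1041058 to 1044192 on the same chromosome, the exception, where the untreated even list had 2 peaks, the wider of 2483 bp, and the RNase-treated list 1 peak of 3135 bp. The next widest was on chromosome 1 at 41991683 to 41995960, with even peaks of 4271 bp (fold 95.5) and 4255 bp (fold 116). Its odd peaks were narrow, 3 without RNase (folds up to 21.5) and 1 with RNase (fold 25.3). On the same chromosome, 53560959 to 53565019 held even peaks of 4053 bp (fold 75.8) and 3991 bp (fold 99.6) and no odd peak. The region on chromosome 22 at 50775505 to 50779210 was 3706 bp wide without RNase (fold 51.8) and 3687 bp with RNase (fold 95.5), again with no odd peak.

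Chromosome 19 had a region at 30185916 to 30189233 with even peaks of 3272 bp (fold 34.8) and 3314 bp (fold 44.2). Chromosome 12 had one at 132639957 to 132643229, of 3190 bp (fold 84.04) and 3273 bp (fold 88.5). Chromosome 10 had one at 135150535 to 135153799, of 3226 bp (fold 74.96) and 3237 bp (fold 114). None of these 3 had an odd peak in either state. On chromosome 13, 36335265 to 36338119 held even peaks of 2855 bp (fold 129) and 2795 bp (fold 252), and odd peaks of 467 bp (fold 43.5) and 510 bp (fold 94.9) that reached only 100 and 137 bp into it. The last of the 10, on chromosome 22 at 47399035 to 47402057, was wide in all 4 lists. Thus 5 of the 10 were recovered with both probe sets, against 10.3% of the 581 regions and 1.28% of all merged regions. The 10 were picked as the widest and so have the most bases to overlap with. Only 1 was wide with both sets, against 0.516% of the 581 regions.

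The probe sets shared few wide regions. Peaks of any width from both sets were found in 60 of the 581 regions (10.3%, interval 8.11 to 13.1), against 1.28% of all merged regions. The share was 4.99% where an overlap of at least 200 bp was asked for and 6.2% where peaks under 10 in −log10 q-value were dropped. A further 504 regions (86.7%) held even peaks only and 17 (2.93%) odd peaks only, against 68.9% and 29.8% of all merged regions. Peaks in all 4 lists were found in 32 regions (5.51%, against 0.512%). By list, and within the same RNase state, 47 of 439 wide even peaks overlapped an odd peak without RNase (10.7%, against 1.23% of all even peaks) and 29 of 482 with RNase (6.02%, against 1.61%). Of the wide odd peaks, 6 of 15 overlapped an even peak without RNase (40%, against 3.76%) and 6 of 23 with RNase (26.1%, against 3.28%). Wider intervals have more bases to overlap with, and the share of untreated even peaks that overlapped an untreated odd peak went up with width, from 0.753% under 200 bp to 5.38% at 400 to 599 bp and 22.5% at 1500 bp or more. It was 2.42% at 600 to 799 bp, below the class of narrower peaks.

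Read at the summit base alone, which does not depend on the width of the peak it belongs to, sharing was lower. The summit of 5.47% of the wide untreated even peaks lay inside an untreated odd peak, against 0.802% of all peaks of the list. With RNase it was 1.04% of the wide even peaks, against 0.954% of all. For the odd lists it was 4 of 15 wide peaks without RNase (26.7%, against 2.64%) and 4 of 23 with RNase (17.4%, against 2.06%). Among even peaks with a fold of at least 50, the share without RNase was 9.73% of wide peaks (interval 6.24 to 14.9) and 7.38% of narrower ones. With RNase it was 1.33% (interval 0.518 to 3.37) and 2.95%. At the summit, wide even peaks thus stood above all peaks of their list without RNase and close to them with RNase. They could not be told from all narrower peaks that were also high, since the intervals held the narrower peaks' share in both states. Against high even peaks of 400 to 599 bp alone, this was so without RNase (8.99%). With RNase the share of those peaks, 3.66%, lay above the interval of the wide peaks.

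Where both sets recovered a wide region, their summits were often, but not always, apart. Of the 47 wide even peaks that overlapped an odd peak without RNase, 24 had their summit inside it, and with RNase 5 of 29 did. The summit of a wide untreated even peak lay a median of 354 bp (interval 162 to 454) from that of the strongest overlapping untreated odd peak, over 47 peaks. With RNase the distance was 562 bp (359 to 814) over 29 peaks. For even peaks under 800 bp the distances were 68.5 and 85.5 bp, which is bounded by their width. Within a probe set, in contrast, wide peaks had their summits as close as narrow ones did. The median distance between RNase states was 19 bp for wide untreated even peaks and 20 bp for narrower ones, and it was 22 bp and 19 bp for odd peaks. The odd peaks inside wide even intervals were mostly narrow, with a median width of 195 bp without RNase and 301 bp with RNase. The median of the highest odd fold there was 8.37 and 19.2.

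Just 3 regions had a peak of 800 bp or more in each probe set. All 3 were wide in all 4 lists. In the chromosome 22 region at 47399035 to 47402057, the even peaks spanned almost the whole region (2980 and 2975 bp), with the summit at 47399610 in both RNase states and folds of 85.3 and 115. The odd set had 3 separate peaks there in each state, the widest of 1133 and 1175 bp, with summits at 47399964 and 47399969 and folds of 58.8 and 114. The summits were thus the same to within 5 bp between RNase states and 354 and 359 bp apart between probe sets.

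In the chromosome 2 region at 95702164 to 95703512, the strongest even summit was at 95703354 in both RNase states, with folds of up to 21.9 and 31.5, near the upper edge. The odd summits were at 95702391 and 95702387, near the lower edge, with folds of 81.9 and 158. In the chromosome 5 region at 57776624 to 57778686, the even lists had 4 peaks without RNase and 2 with RNase, the strongest with summits at 57776887 and 57776898 (folds 53.1 and 64.6). The odd lists had 3 peaks in each state, the strongest with summits at 57778450 and 57778377 (folds 53.4 and 57.6). In both regions the strongest summits of the probe sets lay towards opposite ends in each RNase state, although the strongest peak was not always the one of 800 bp or more.

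Regions wide in an odd list numbered 24, of which 17 held no even peak of any width. Most odd peaks of any width had none either. An even peak of either RNase state overlapped 7 of 15 wide untreated odd peaks (46.7%, against 4.64% of all peaks of that list). For wide RNase-treated odd peaks it was 7 of 23 (30.4%, against 3.82%). The highest fold among wide odd peaks was on chromosome 8 at 41690496 to 41691447, with peaks of 928 bp (fold 139) without RNase and 952 bp (fold 218) with RNase. The untreated even list had no peak there and the RNase-treated even list had 1 of 144 bp with a fold of 8.43. The widest odd peak with RNase was on chromosome 22 at 35444675 to 35446324, 1650 bp wide with a fold of 109, where the untreated odd list had 2 peaks. Even lists had no peak there. On chromosome 12 at 132873259 to 132874799, odd peaks of 1438 bp (fold 60.04) and 1541 bp (fold 100.2) had no even counterpart, although the wide even region of 132639957 to 132643229 described above lies on the same chromosome arm.

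The highest fold among wide even peaks was on chromosome 13 at 109945358 to 109947323 without RNase (1855 bp, fold 153), with 1966 bp and a fold of 265 in the RNase-treated even list. Odd peaks of 473 bp (fold 15.7) and 503 bp (fold 26.2) lay inside it. With RNase the highest was on chromosome 4 at 180584678 to 180585732, with even peaks of 1022 bp (fold 143) and 1055 bp (fold 293) and no odd peak. The even and odd lists thus had their strongest wide peaks at different places, each with a weak, narrow or absent peak of the other set.

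Summits of wide peaks were spread over the interval rather than gathered at its centre. With each interval divided into 3 equal parts, 157 of 439 even summits without RNase were in the middle part (35.8%, interval 31.4 to 40.4), 147 in the part of lower coordinates and 135 in the part of higher coordinates. Over all peaks of the list the middle part held 77.8%. In the RNase-treated even list the numbers were 174 of 482 in the middle (36.1%, interval 31.9 to 40.5, against 72.4% of all peaks), 156 below and 152 above. In the odd lists 7 of 15 (46.7%, against 78.2%) and 11 of 23 (47.8%, against 73%) were in the middle part.

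Within the interval the summits were not uniform. With 10 equal parts, the untreated even summits were most frequent in the third (78 peaks, 17.8%) and the eighth (76 peaks, 17.3%), and the 2 central parts held 53 and 42. The RNase-treated even list had 78 and 76 in the same off-centre parts and 47 and 51 in the centre. The outermost part on either side held 2 or 3 summits in each even list. Summits of wide even peaks lay at least 114 bp from the nearer edge, with a median of 306 bp without RNase and 305 bp with RNase, against 77 and 78 bp for narrower peaks. In the untreated even list the share in the middle of 3 parts was 89.2% at 400 to 599 bp, 44.2% at 600 to 799 bp, 37.6% at 800 to 999 bp and 28.2% at 1500 bp or more. In this list the largest change thus came between the classes of 400 to 599 bp and 600 to 799 bp, below the threshold used here. In the odd lists, peaks of 600 to 799 bp still had 80.3% (untreated) and 85.7% (RNase-treated) of summits in the middle of 3 parts.

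**Figure D4:**
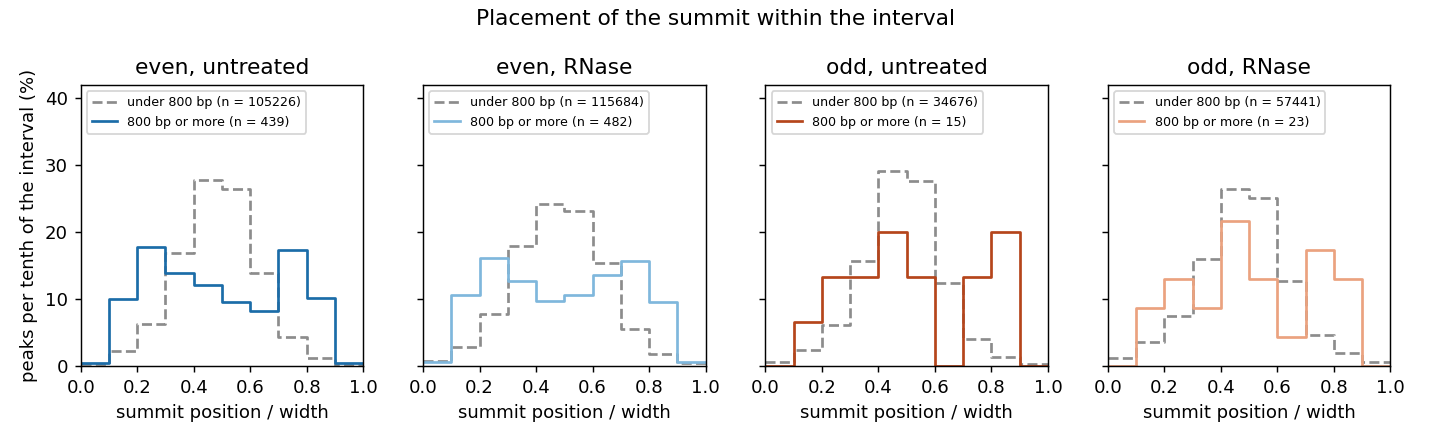
Percent of peaks with the summit in each of 10 equal parts of the interval, for wide peaks (solid) and peaks under 800 bp (dashed), in each of the 4 lists. Narrower peaks have their summit near the centre. The wide even peaks have 2 broad maxima off the centre, and the wide odd peaks are few (15 and 23).

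Most summits kept their place between RNase states. Among the 361 even pairs, 255 (70.6%) had summits within 50 bp of each other and 269 (74.5%) had them in the same of the 3 parts. In 27 pairs (7.48%) the summit was more than 500 bp away, so that another part of the same interval was highest. The largest such shift was 2195 bp, on chromosome 14, between an untreated interval at 106155764 to 106157777 and an RNase-treated interval at 106155058 to 106157765. In the 14 odd pairs, 9 had summits within 50 bp and 11 in the same part.

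Wide regions lay towards chromosome ends. Ends were taken as the outermost peak edges on each chromosome over all 4 lists, since chromosome lengths of hg19 were not used here. The lower ends of the acrocentric chromosomes 13, 14, 15, 21 and 22 were not counted, because their peaks begin beside the centromere. Of the 581 regions, 205 were within 5 Mb of an end (35.3%, interval 31.5 to 39.3), against 9.6% of all merged regions. Within 1 Mb there were 41 (7.06%, against 1.9%) and within 10 Mb 282 (48.5%, against 17.9%). The median distance to the nearer end was 10.8 Mb for wide regions and 32.2 Mb for all merged regions.

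The frequency of wide regions among all merged regions changed in steps with distance. It was 11.1 per 1000 regions in the outermost 1 Mb, 11 per 1000 at 1 to 5 Mb, 4.81 at 5 to 10 Mb, 2.8 at 10 to 20 Mb and 1.67 beyond 20 Mb. It was thus 6.61 times as high within 5 Mb as beyond 20 Mb. A further 216 regions (37.2%) lay more than 20 Mb from an end, so the ends did not hold all wide regions.

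The share near ends changed with width in the even lists, with a step between the classes of 400 to 599 bp and 600 to 799 bp. Finer classes were not counted, so the step is placed no more closely than that. Without RNase it was 10.5% for peaks under 200 bp, 10.8% at 200 to 399 bp and 12.8% at 400 to 599 bp. It was then 31.9% at 600 to 799 bp, 32.6% at 800 to 999 bp, 36.4% at 1000 to 1499 bp and 43.7% at 1500 bp or more. All peaks of this list had 11%. The RNase-treated even list, where all peaks had 10.2%, showed the same step, from 11.4% at 400 to 599 bp to 30.9% at 600 to 799 bp.

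**Figure D5:**
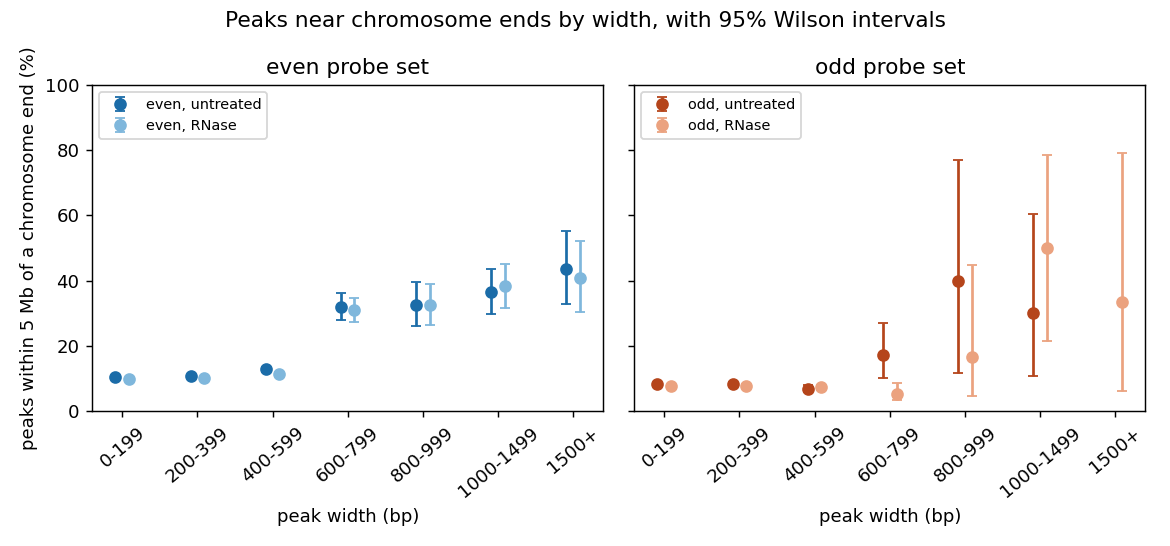
Percent of peaks within 5 Mb of a chromosome end (vertical axis) by peak width in bp (horizontal axis), in the even lists (left) and the odd lists (right), with Wilson 95% intervals as bars. In the even lists the share steps up between 400 to 599 bp and 600 to 799 bp. In the odd lists the classes of 800 bp and above hold at most 12 peaks each and their intervals are wide.

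The share near ends was also read among peaks of high fold only, by a split chosen after the values were seen. The part of height in it was not tested. Among untreated even peaks with a fold of at least 50, 70 of 185 wide peaks were within 5 Mb of an end (37.8%), but 344 of 4053 narrower peaks were (8.49%). With RNase the shares were 33.6% of 301 wide and 8.44% of 9624 narrower even peaks. In the odd lists, 5 of 11 wide peaks of such fold were near ends without RNase (45.5%, against 6.6% of 2347 narrower ones), and 6 of 19 with RNase (31.6%, against 7.18% of 6055).

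In the odd lists the wide peaks were few. Near an end were 5 of 15 without RNase (33.3%, against 8.25% of all peaks) and 7 of 23 with RNase (30.4%, against 7.66%). Of odd peaks of 600 to 799 bp, 13 of 76 were near an end without RNase (17.1%, interval 10.3 to 27.1), above their list. With RNase it was 15 of 279 (5.38%, interval 3.28 to 8.68), where the interval held the share of the list. Of the 17 regions with odd peaks only, 6 were within 5 Mb (35.3%, against 7.62% of all such merged regions). Regions with even peaks only had 177 of 504 (35.1%, against 10.4%) and regions of both probe sets 22 of 60 (36.7%, against 11.1%). These 3 groups are different sites, and the intervals of the smaller groups, 17.3 to 58.7 and 25.6 to 49.3, held the share of the largest.

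Not all ends were alike. Wide regions were found within 5 Mb of 34 of the 41 ends counted. The ends at higher coordinates held 152 of them and those at lower coordinates 53, while all merged regions were divided 11097 and 7521, with fewer lower ends counted. The upper ends of chromosomes 21 (15 regions), 22 (12) and 7 (12) and the lower end of chromosome 5 (11) held most, together with the upper end of chromosome 2 (11). In that order, these ends held 622, 603, 390, 534 and 549 merged regions of any width. The upper end of chromosome 1 and the lower ends of chromosomes 3, 9, 16, 18, 20 and X held 0. Their merged regions of any width numbered from 169 (X) to 491 (chromosome 16), counted from the outermost peak edge. On X this lower edge lay inside the chromosome, since the region starting at 139805407 was only 137095959 bp from it. The coordinates below that edge held no peak in any list, so the true lower end of X was not covered. The 3 regions nearest to an end were on chromosome 20 at 62900738 to 62902028, which was the outermost peak of that chromosome, on chromosome 18 at 77943355 to 77944586 (72.2 kb from the outermost peak edge) and on chromosome 16 at 90098124 to 90099198 (89.3 kb). Without and with RNase, the even folds were 64.4 and 105 on chromosome 20, 29.8 and 37.2 on chromosome 18, and 45.5 and 73.8 on chromosome 16. None of the 3 had an odd peak.

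By chromosome, the shortest ones held the most wide regions for their size. Chromosome 22 had 25 regions (0.732 per Mb between its outermost peaks) and chromosome 21 had 24 (0.621 per Mb), of which 12 and 15 were within 5 Mb of an end. Set against all merged regions, they had 7.39 and 10.6 wide regions per 1000. Chromosome X had the fewest, with 6 regions (0.0394 per Mb and 1.08 per 1000), and chromosomes 3 and 15 followed with 1.52 per 1000 each. Copy number in this aneuploid line was not analysed here. Chromosome 2 held the largest number, 54, and without it the share of regions near ends was 35.5%.

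Beside centromeres, wide regions were too few to tell their frequency from that of other regions. The widest stretch without peaks on each of the 18 chromosomes that are not acrocentric was taken as the mark of the centromere. No peak lies inside such a stretch, so tandem repeats within it could not be compared with those near chromosome ends. Within 1 Mb of it lay 5 of 485 regions (1.03%, interval 0.441 to 2.39), against 0.777% of all merged regions. Of these, 3 were on chromosome 2, and the region of both probe sets at 95702164 to 95703512 was among them. Chromosome 1 held 1, at 121484591 to 121485428, the last peak before the stretch. It was recovered by the odd set only, with folds of 7.77 and 9.97, far below most wide peaks. 

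Wide regions also lay close to each other. Within 100 kb of another wide region were 107 of 581 (18.4%, interval 15.5 to 21.8), and 5.4% of all other merged regions were that close to one. They formed 48 groups, 39 of 2 regions, 7 of 3 and 2 of 4. Counted by the nearest region of each, 23 of the 48 groups were within 5 Mb of an end, against 35.3% of the 581 single regions. In 9 cases the gap between neighbours was at most 1 kb, as between the pair on chromosome 5 described above and on chromosome 1, where the region at 53560959 to 53565019 was the first of a group that ended at 53567761.

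The largest groups had 4 regions. On chromosome 18 they lay between 76308596 and 76464546, 1.55 Mb from the outermost peak, and were all even, with the highest fold (43.2 without and 94.2 with RNase) in the first, at 76308596 to 76310311. On chromosome 11 they lay between 2062783 and 2218575, 1.87 Mb from the outermost peak, and the probe sets differed from region to region. The first, at 2062783 to 2063883, had odd peaks only (folds 82.4 and 149). The second, at 2147284 to 2148189, had wide even peaks (29.4 and 22.6) and narrow odd peaks (12.3 and 16.9). The other 2, at 2208353 to 2209382 and 2217730 to 2218575, had even peaks only, with folds of 13.2 and 15.8 and of 19.5 and 17.4. Neighbouring wide regions were thus not always sites of the same probe set.

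Only 2 regions had no untreated peak (0.344%, against 28.6% of all merged regions). By the rule, regions wide in an untreated list could not lack one. Only the 121 regions wide in the RNase-treated even list alone and the 9 wide in the RNase-treated odd list alone could have. The 2 regions lay side by side on chromosome X, in the RNase-treated even list alone. They were at 139805407 to 139806401 (995 bp, fold 8.25) and 139806868 to 139807846 (979 bp, fold 16.7). Both folds were far below the median of 61.3 for wide peaks of that list. A peak of 303 bp (fold 4.64) lay between them. Next to them, at 139808204 to 139808682, was an RNase-treated even peak with a fold of 37.4, which had an untreated counterpart with a fold of 12.7. The odd lists had no peak in this stretch.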

How the data were processed

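Peak lists of 4 ChIRP-seq libraries were used. Bowtie, MACS2 and hg19 are named in the submitters' processing notes. Versions, thresholds and the control library are not given there. The deposited files are narrowPeak tables with no header line. The fold of each peak (a linear ratio), its −log10 p-value, −log10 q-value and score are the authors' deposited values. The fold described peaks within each list, the p-value ranked them, the q-value served as a filter, and the score was not used.

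Merging and counting used pandas 2.3.3, numpy 2.4.6 and scipy 1.17.1 under Python 3.11.15, and plotting used matplotlib 3.10.9. Positions count from 1 in hg19. Overlap needed 1 bp. The counting was tested on simulated data. Shares have Wilson 95% intervals, and medians of distances have order-statistic 95% intervals. Both cover counting error only. Background shares come from all peaks of a list, or from all peaks merged, without the CDKN1A and DINO locus.

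The regions and measures were chosen with earlier results of these data known. Named positions were the 10 widest regions, regions wide in each probe set, the wide peak of highest fold in each list, the 3 nearest to an end, regions with peaks in 1 RNase state only, the largest groups of neighbours and the peaks next to the width threshold. Other positions, and the split at a fold of 50, were chosen after their values were seen. Alternatives were other widths, merging rules, overlaps, distances and peak filters. Genes, repeats and sequence were not analysed here, since the reference tables used are of another assembly.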

Additional observations from a re-analysis of the deposited data

Results flagged for a closer look

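Mitochondrial DNA, which was left out of the comparisons, held 1 peak of 800 bp or more, in the untreated odd list. It lay at 15438 to 16571, was 1134 bp wide and had a fold of 8.77. It stood out because no RNase-treated list, the control, had a mitochondrial peak of that width. The widest there were 502 bp in the even and 529 bp in the odd list, and the widest in the untreated even list was 616 bp.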

How the results depend on the processing

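No paired analysis was possible because there was 1 library per condition. Of 67 values recomputed under other settings, 41 kept to the interval of the reported share, or to 1.5 times the reported count, and 26 moved. Stricter widths removed members by construction. At 1000 bp there were 258 untreated even, 272 RNase-treated even and 11 RNase-treated odd wide peaks and 321 regions. At 1500 bp there were 71, 76, 3 and 0 (untreated odd) and 89 regions. Summits in the middle 50% of the interval, a wider part, were 63.1% and 63.7% in the even lists. Regions of both probe sets were 4.99% with an overlap of 200 bp, 0.516% if wide in each set, 13.4% at 1000 bp, 6.2% when peaks below 10 in −log10 q-value were dropped, which removed no wide peak, and 13.4% for folds of 50 or more, a setting chosen after seeing the data. Regions of both RNase states were 98.6% with 200 bp, 64% if wide in each, 100% at 1000 bp, 98.6% by q-value and 93% with equal numbers of peaks. The share near ends was 7.06% for 1 Mb, 48.5% for 10 Mb and 29.2% for wide odd peaks alone, the last also added after seeing the data. It was 34.2% to 38.9% in the other settings at 5 Mb. Regions near another were 9.64% within 20 kb and 64.5% within 1 Mb. Depth is unknown, and the odd lists hold too few wide peaks for narrow intervals.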

Other observations

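Among the 24 regions wide in an odd list, 4 had a fold under 20 in every list. The 2 described first were chosen after their values were seen. On chromosome 12 at 54356276 to 54357973, the odd intervals were 1497 bp wide without RNase (fold 10.1) and 1627 bp with RNase (fold 14.5). The even lists had narrow peaks inside it, 1 of 267 bp (fold 6.12) without RNase and 3 with RNase, the strongest at 54356383 to 54356847 (fold 8.38). Further odd peaks lay close by, at 54359713 to 54360221 (fold 11.1, RNase-treated list) and at 54361077 to 54361208 (fold 8.64) and 54361037 to 54361264 (fold 20.4). An RNase-treated even peak at 54361006 to 54361208 (fold 8.03) overlapped the last 2 of these. No gene table of hg19 was used here, but as background knowledge the position is that of the gene of HOTAIR, a long noncoding RNA of the HOXC cluster.

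On chromosome 7 at 27244518 to 27245412, the RNase-treated odd interval was 895 bp wide with a fold of 8.77. It was part of a run of low odd peaks. Others with RNase lay at 27241627 to 27242302 (676 bp, fold 12.5) and 27245510 to 27246210 (701 bp, fold 11.6). The untreated odd list had peaks with folds of 6.06 to 9.01 along the same run. The even lists had only 1 peak there, at 27240914 to 27241164, with RNase (fold 4.52). As background knowledge, likewise not read from a table, the run lies in the HOXA cluster at the gene of HOTTIP, another long noncoding RNA. The other 2 low-fold odd regions were the one beside the centromere on chromosome 1 and one on chromosome 3 at 168562724 to 168563526 (fold 17.7 with RNase, 6.47 without).

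Across the series, 29 of the 581 wide regions had a fold under 20 in every list. Within 5 Mb of a chromosome end were 9 of these 29, against 205 of all 581 wide regions (35.3%) and 9.6% of all merged regions. The 29 are too few to set them apart from the other wide regions.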
